A study of Mus musculus with 27 samples.

Results

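The acrosome is the enzyme-filled cap over the sperm nucleus, and the flagellum is the tail that drives the cell. Round spermatids, the haploid cells that follow meiosis, transcribe most of the genes for these parts and store many of the mRNAs until the cell elongates. The acrosome is assembled from vesicles sent out by the Golgi apparatus, and the tail is built around a microtubule axoneme wrapped in outer dense fibres and a fibrous sheath. Ythdf2 encodes a cytoplasmic protein that binds mRNA carrying N6-methyladenosine and promotes its decay, and Mettl3 encodes the enzyme that writes this mark.

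The set described here was a list of 38 named genes of the acrosome, the flagellum, the sperm calcium channel CatSper, the testis-specific kinases and 3 regulators of spermatid transcription. Of these, 37 were present among the 17715 genes of the spermatid count table. Fsip2, a fibrous sheath gene, was not analysed here for spermatids. By role there were 8 genes for acrosome contents, 5 for acrosome membrane and gamete fusion, 5 for acrosome assembly and head shaping, 9 for flagellum structure including Fsip2, 4 for CatSper, 4 kinases and 3 transcription genes.

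The study holds 27 RNA-seq libraries in 12 groups, from 4 experiments in mouse. Round spermatids were sorted by FACS from mice of CB6F1 X C57BL/6 background, with 2 libraries labelled Ythdf2-/- and 1 library labelled Ythdf2+/+, made from rRNA-depleted total RNA. GV oocytes (germinal vesicle stage, before meiotic maturation) came from Mettl3f/f mice with Zp3-Cre, a recombinase under an oocyte promoter (3 libraries), or without it (4 libraries), on a BDF1 X C57BL/6 X Jax#003651 background; the floxed allele was carried by the controls too. Post-GV oocytes came from Ythdf2-/- mice (2 libraries) and Ythdf2+/- mice (3 libraries) of CB6F1 X C57BL/6 background, so that the controls lacked 1 allele. Embryonic stem cells of the KH2 line (C57BL/6 x 129/Sv) were WT or knocked out for Ythdf1, Ythdf2, Ythdf3, these 3 genes together, or Mettl3, with 2 libraries each. For ages, and for whether a stem cell group was 1 clone, nothing was stated in the labels.

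Total counts were 18843689 and 22120274 in the spermatid libraries labelled Ythdf2-/- and 32759740 in the library labelled Ythdf2+/+. The targeted gene did not separate these labels: Ythdf2 stood at 29.9 and 27.9 CPM (counts scaled to library size, after TMM normalization) in the labelled knockouts and at 29.2 in the labelled wild type. The labels do not say which part of Ythdf2 was deleted, so a count over the whole gene checks nothing, and all spermatid directions below rest on the labels. Spermatid identity was clear from the markers: 10 of 10 spermatid markers were listed, with a summed level of 15909 and 11207 CPM in the labelled knockouts and 9488 CPM in the labelled wild type. Spermatocyte markers, from the preceding meiotic stage, summed to 1801 and 1601 CPM against 2001 CPM. Sertoli markers summed to 26.3 and 11.1 against 12.2 CPM, Leydig markers to 3.60 and 3.30 against 3.16 CPM with Cyp11a1, Insl3 and Lhcgr not listed, and macrophage markers to 4.23 and 8.02 against 4.44 CPM.

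The first question was whether acrosome and flagellum transcripts differed in round spermatids labelled Ythdf2-/-. Most did not pass the test, and the 4 that did went in both directions. Ptchd3, grouped here with the flagellum genes, fell by 3.03 on the log2 scale. Gopc, an acrosome assembly gene, fell by 1.20, a call that was lost in 4 of 5 alternative fits. Fhl5, a transcription coactivator of spermatids, rose by 1.06 and Capza3, a capping protein gene of the sperm head, rose by 1.00. The call was an adjusted p under 0.05 in edgeR's quasi-likelihood test with Benjamini-Hochberg adjustment over 16031 tested genes. All of the spread came from the 2 labelled knockouts, and the single labelled wild type library was assumed to vary like them. Of the 37 genes 2 were called higher and 2 lower, where 2.25% of all tested genes were called higher and 2.64% lower, and 4.90% in either direction. Scaling by total counts moved the share of higher genes among all calls from 46.0% to 63.1%, and the calls in the set to 5 higher and 1 lower.

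Over the set as a whole the changes were small. The median log2 change of the 37 genes was 0.23, beside 0.08 over all tested genes, and 23 of 37 changes were above 0, beside 54.4% of all tested genes. In 19 of 37 genes the labelled knockouts were both above the labelled wild type, and in 12 they were both below it; among all tested genes these shares were 38.8% and 36.1%. With 1 control library the groups separate easily, and an exact permutation test over these 3 samples could not go below p = 0.333. The 2 labelled knockouts themselves differed by a median of 0.27 on the log2 scale over the 37 genes, and by up to 1.00, while the gap from their mean to the labelled wild type had a median of 0.41. Over the 6403 tested genes at or above the lowest member level these medians were 0.22 and 0.36. The 6403 genes were not matched to the set by level: their median level was 62.6 CPM, against 352 CPM for the 37 genes. Of the spermatid markers, 8 of 10 were above the labelled wild type in both labelled knockouts, with a median log2 change of 0.59 and a call for Tnp1 (0.78 ± 0.24 SE, edgeR adjusted p = 0.0372). Spermatocyte markers had a median of -0.30, with 9 of 10 below 0 and 0 called by edgeR, 3 of them at an unadjusted p under 0.05. Spermatogonia markers, with 7 tested, had a median of 0.55, with 6 above 0 and 0 called by edgeR. Sertoli markers, with 8 tested, had a median of 0.70, with 7 above 0 and 0 called by edgeR. Leydig, peritubular and macrophage markers had medians of 0.49, 0.47 and 1.63 over 3, 3 and 2 tested genes. The part of stage composition in the results was not tested, and in bulk RNA fewer cells of a type and less RNA per cell cannot be told apart.

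**Figure D1:**
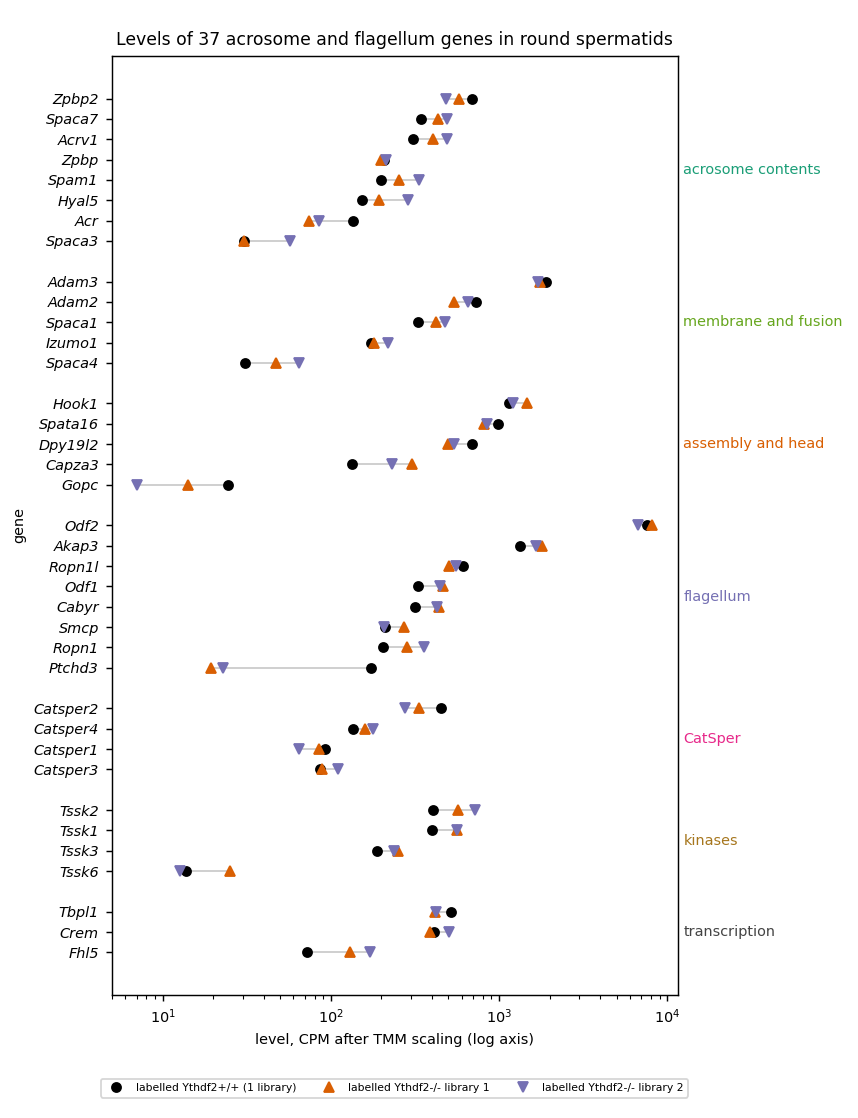
Level of each of the 37 genes in the 3 round spermatid libraries, in CPM after TMM scaling on a log axis, grouped by role; the grey line spans the libraries of a gene. Levels run from Gopc, at 7.07 to 24.4 CPM, to Odf2, at 6727 to 8127 CPM, and the widest gap between the labelled groups is that of Ptchd3.

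Levels spanned a wide range. Odf2, which encodes a core protein of the outer dense fibres, ranked 1 of all tested genes by mean CPM. Per kilobase of annotated exon the order in the labelled wild type began with Odf2 at 761 CPM per kb, Adam3 at 644, Ropn1l at 638, Spata16 at 468 and Akap3 at 423. The low end held Gopc at 2.23 CPM per kb, Tssk6 at 10.3 and Spaca3 at 32.1. Adam3, at 581 to 644 CPM per kb over the 3 libraries, and Ropn1l, its neighbour in this order, overlapped in their ranges. The 37 genes together took 2.32% and 2.30% of the counts in the labelled knockouts and 2.07% in the labelled wild type. Odf2 alone took 0.816%, 0.701% and 0.721%.

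Promoter sequence is shown for Izumo1, which holds the full element described next, for Odf2, the most abundant member, and for the called genes Gopc and Fhl5, since Crem, Fhl5 and Tbpl1 act at the promoters of spermatid genes. CREM binds the cyclic AMP response element, and FHL5 is its coactivator in spermatids. The windows were 250 bases before to 50 bases after a RefSeq start (GRCm38.p6), and 30 of 38 genes had one. The stretches below are the 120 bases before a start, 5′ to 3′ on the gene's strand, at chr7:45621691-45621810 (plus) for Izumo1, chr2:29889600-29889719 (plus) for a start of Odf2 inside the annotated gene, chr10:52382125-52382244 (minus) for Gopc and chr4:25242267-25242386 (minus) for a start of Fhl5 that also lies inside the gene. Capitals mark TGACGTCA, the full response element, or its short form TGACG, each searched on both strands; the short form lies inside the full one.
Izumo1: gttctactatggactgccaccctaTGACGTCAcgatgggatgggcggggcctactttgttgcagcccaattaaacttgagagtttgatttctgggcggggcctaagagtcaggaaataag
Odf2: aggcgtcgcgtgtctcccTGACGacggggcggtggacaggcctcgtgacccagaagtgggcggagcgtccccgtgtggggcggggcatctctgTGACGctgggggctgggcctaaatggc
Gopc: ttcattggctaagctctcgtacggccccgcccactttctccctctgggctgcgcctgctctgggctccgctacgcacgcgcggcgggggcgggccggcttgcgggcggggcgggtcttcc
Fhl5: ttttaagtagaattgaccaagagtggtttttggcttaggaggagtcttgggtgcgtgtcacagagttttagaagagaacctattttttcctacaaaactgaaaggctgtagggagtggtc
TGACGTCA was found in the window of 1 gene, Izumo1, where it starts 96 bases before the start, beside 1.79% of 32851 promoters. TGACG was found in the windows of 10 of 30 genes (33.3%), beside 20.8% of all promoters, and in Odf2 it starts 102 and 27 bases before the start. Gopc is among the 10, with the match outside the stretch printed. TATAAA was found in 1 gene, Spaca7, beside 13.6% of all promoters. The 30 genes had 36 windows, and a gene counted if any of its windows matched. The shares of all promoters are per window, so the shares of genes and of promoters are not on the same basis. These are matches of letters, not measured sites.

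Acrosome contents held no call: 0 of 8 passed the edgeR test, with 4 at an unadjusted p under 0.05, beside 2856 of all 16031 tested genes. In 4 genes both labelled knockouts were above the labelled wild type and in 2 both were below, beside 38.8% and 36.1% of all tested genes. Acrv1, an acrosomal matrix protein gene, stood at 406 and 489 CPM in the labelled knockouts and at 308 in the labelled wild type. Spaca7, another acrosomal protein gene, stood at 432 and 489 CPM against 346. Spam1, a hyaluronidase of the sperm surface and acrosome, stood at 254 and 336 CPM against 199. These 3 were thus above the labelled wild type in each labelled knockout. Zpbp2, which binds the zona pellucida and organises the acrosomal matrix, stood the other way, at 580 and 481 CPM against 689. The log2 changes of these 4 genes were 0.54 for Acrv1, 0.41 for Spaca7, 0.57 for Spam1 and -0.38 for Zpbp2, with SE of 0.23 to 0.25. Acr, the gene of the protease acrosin, lay just outside the threshold and is given for that reason: it stood at 74.5 and 84.7 CPM against 136, a log2 change of -0.78 ± 0.25 SE (edgeR adjusted p = 0.0526). The remaining genes Hyal5, Zpbp and Spaca3 had log2 changes from -0.0034 to 0.64, and the sign of Zpbp turned with total count scaling (0.097) and with a minimum of 5 CPM (0.048).

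The membrane and fusion genes showed no call either, with 0 of 5 past the edgeR test and 1 at an unadjusted p under 0.05. Izumo1, the sperm protein that binds the egg for fusion, stood at 180 and 218 CPM in the labelled knockouts and 173 in the labelled wild type. Spaca1, an inner acrosomal membrane protein gene, stood at 422 and 476 CPM against 332. The metalloprotease-family genes Adam2 and Adam3, whose proteins sit on the sperm surface, lay below: Adam2 at 543 and 652 CPM against 730. Adam3 stood at 1743 and 1710 CPM against 1896. The log2 changes were 0.20 for Izumo1, 0.44 for Spaca1, -0.29 for Adam2 and -0.13 for Adam3. Spaca4, the remaining gene, had a log2 change of 0.86 ± 0.31 SE (edgeR adjusted p = 0.0868). Part of the Izumo1 count may be shared with Rasip1, a gene on the same strand that overlaps it: 24.5% of the 50-base stretches of the longest Izumo1 transcript occur in other genes. Rasip1 was not called in spermatids (log2 change -0.01 ± 0.52 SE).

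Acrosome assembly and head shaping held 2 of the 4 calls, in opposite directions. Gopc, a Golgi protein gene needed for acrosome formation (chr10:52335850-52382124, minus strand, up to 9 exons), had 14.2 and 7.07 CPM in the labelled knockouts, from 268 and 163 counts, and 24.4 CPM in the labelled wild type, from 764 counts. The mean of the labelled knockouts was 10.6 ± 5.02 CPM (SD, n = 2), and their gap of 1.00 on the log2 scale was the widest of the 37 genes. The log2 change was -1.20 ± 0.38 SE (edgeR adjusted p = 0.0452). This call was lost under RLE scaling (adjusted p = 0.0638), total count scaling (0.0597), a minimum of 5 CPM (0.132) and DESeq2 (0.204), and the log2 ratio to the labelled wild type was -1.83 without labelled knockout 1 and -0.77 without labelled knockout 2. Capza3 (chr6:140041252-140042778, plus strand, up to 2 exons) had 305 and 230 CPM against 133, with a mean of 267.5 ± 52.5 CPM (SD, n = 2) in the labelled knockouts. Its log2 change was 1.00 ± 0.26 SE (edgeR adjusted p = 0.00741), and it stayed past the threshold in all 5 alternative fits, with adjusted p from 0.00116 to 0.0399. The opposite-strand gene Plcz1 covers 7.01% of the annotated Capza3 exon bases and stood at 913 and 1091 CPM against 706 (log2 change 0.50, adjusted p = 0.237); no source used here states whether reads were counted by strand.

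The other 3 genes of this role did not pass. Hook1, a microtubule linker of the manchette, stood at 1472 and 1217 CPM against 1143. Spata16, a Golgi and acrosome protein gene, stood at 816 and 851 CPM against 988. Dpy19l2, which anchors the acrosome to the nucleus, stood at 497 and 540 CPM against 689. Spata16 and Dpy19l2 were below the labelled wild type in both labelled knockouts and Hook1 was above it. The log2 changes were 0.23, -0.24 and -0.41, with SE of 0.23.

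The flagellum genes carried the largest change of the set in Ptchd3, and no other of the 8 listed genes was called. Ptchd3, a patched-domain protein gene expressed in male germ cells (chr11:121830247-121843423, plus strand, up to 4 exons), had 19.4 and 22.9 CPM in the labelled knockouts and 173 CPM in the labelled wild type. The counts behind these levels were 366 and 529 against 5419. The labelled knockouts lay close to each other, at a mean of 21.1 ± 2.54 CPM (SD, n = 2), and far below the labelled wild type. The log2 change was -3.03 ± 0.27 SE (edgeR adjusted p = 1.84e-17), and it ran from -2.93 to -3.06 over the 5 alternative fits, with the highest adjusted p at 4.72e-06. Against each labelled knockout alone it was -3.15 and -2.97. The authors' deposited table gives Ptchd3 a log2 fold change of -3.07 and an adjusted p of 1.02e-19. None of the up to 4 tested genes on each side of Ptchd3, Fhl5, Capza3 or Gopc was called; next to Ptchd3, Metrnl had a log2 change of 0.45 ± 0.82 SE and B3gntl1 of 0.02 ± 0.54 SE.

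**Figure D2:**
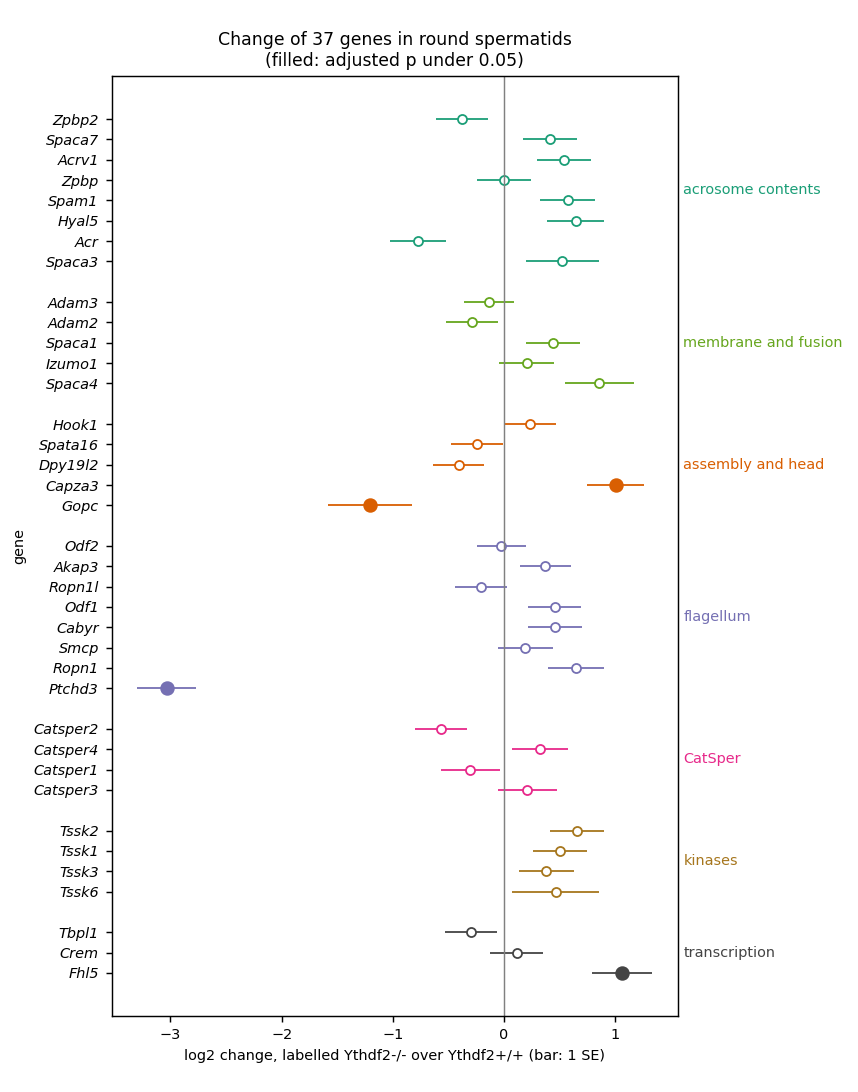
Log2 change of each of the 37 genes, labelled Ythdf2-/- over labelled Ythdf2+/+, with bars of 1 SE from the edgeR fit and filled points for an adjusted p under 0.05. Ptchd3 at -3.03 stands far to the left, and the genes without a call lie between -0.78 and 0.86.

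The other genes grouped under flagellum structure did not pass the test. Odf2 had 8127 and 6727 CPM in the labelled knockouts and 7551 in the labelled wild type, so that the groups overlapped. Its log2 change of -0.02 turned to 0.073 with total count scaling, to 0.030 with a minimum of 5 CPM and to 0.12 without labelled knockout 2. Akap3, a scaffold of the fibrous sheath, stood at 1798 and 1657 CPM against 1335. Odf1, the main outer dense fibre gene, stood at 464 and 444 CPM against 332. Akap3 and Odf1 were above the labelled wild type in each labelled knockout, with log2 changes of 0.37 and 0.45. Ropn1l, a sheath protein gene, lay below it at 503 and 554 CPM against 610 (log2 change -0.21). The remaining genes Cabyr, Ropn1 and Smcp had log2 changes from 0.19 to 0.65 with 0 calls by edgeR. Smcp, at 272 and 207 CPM against 210, turned to -0.073 without labelled knockout 1. Of all 8 listed flagellum genes 2 were at an unadjusted p under 0.05, Ptchd3 among them.

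A list of 44 other flagellum genes, of the axoneme and sheath, held further calls. Akap4, Spem1 and Oaz3 are in this list and also in the spermatid marker list, so the lists are not separate. Of 43 tested, 0 were called higher and 4 lower, beside 2.25% and 2.64% of all tested genes. Above 0 were 15, beside 54.4% of all tested genes, and the median log2 change was -0.15. Those called were Ccdc40, an axoneme ruler gene (-1.07, adjusted p = 0.00121), Rsph1, a radial spoke gene (-1.06, adjusted p = 0.00956), Tcte1, a dynein regulator gene (-0.88, adjusted p = 0.0212), and Dnah8, a dynein heavy chain gene (-0.72, adjusted p = 0.0405), all by edgeR's quasi-likelihood test. Rsph1 stood at a mean of 783 CPM in the labelled knockouts and 1633 in the labelled wild type. Another 18 acrosome genes gave 0 calls in edgeR, with 3 at an unadjusted p under 0.05 and a median of 0.30. Lists of CatSper and ion transport genes (8 tested), kinase partners (6 tested) and spermatid transcription genes (8 tested) gave 0 calls each in edgeR, with 2, 1 and 1 genes at an unadjusted p under 0.05.

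CatSper genes were split. They encode the pore subunits of the calcium channel of the principal piece, which sperm need for hyperactivated motility. Catsper1 stood at 85.3 and 64.3 CPM in the labelled knockouts and 92.2 in the labelled wild type. Catsper2 stood at 333 and 275 CPM against 450. These 2 were below the labelled wild type in each labelled knockout, and the other 2 were above it. Catsper3 stood at 88.2 and 111 CPM against 86.0. Catsper4 stood at 159 and 179 CPM against 135. The log2 changes were -0.30, -0.57, 0.21 and 0.32 in the same order, and 0 of 4 were called by edgeR, with Catsper2 alone at an unadjusted p under 0.05 (adjusted p = 0.156). The sum of the 4 was 665 and 629 CPM against 763.

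All 4 testis-specific kinase genes had a log2 change above 0, beside 54.4% of all tested genes. By edgeR 0 of 4 were called, with 2 at an unadjusted p under 0.05, beside 2856 of all 16031 tested genes. These serine/threonine kinases are made after meiosis and are needed for the shaping of the spermatid. Tssk1 stood at 562 and 566 CPM in the labelled knockouts and 398 in the labelled wild type. Tssk2 stood at 569 and 715 CPM against 407. Tssk3 stood at 252 and 238 CPM against 188. For these 3 genes both labelled knockouts were above the labelled wild type, as for 38.8% of all tested genes. Tssk6 had few counts, 477 and 291 against 429, and its levels of 25.2 and 12.6 CPM spanned the 13.7 CPM of the labelled wild type. The log2 changes were 0.50, 0.66, 0.38 and 0.46, and the smallest adjusted p was that of Tssk2 at 0.0983. Without labelled knockout 1 the log2 ratio of Tssk6 was -0.17, leaving 3 of 4 above 0. The sum of the kinases was 1408 and 1531 CPM against 1007, while the summed spermatid markers stood 0.75 and 0.24 above the labelled wild type on the log2 scale.

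Tssk1 and Tssk2 lie next to each other on chromosome 16 and share sequence. How reads that match both genes were counted was not stated in the sources used here. Their longest identical run is 113 bases, from base 371 of each coding sequence. It is shown because a read that lies inside it matches both genes.
Tssk1 and Tssk2: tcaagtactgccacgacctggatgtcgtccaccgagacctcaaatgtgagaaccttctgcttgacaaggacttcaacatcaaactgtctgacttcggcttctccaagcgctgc
Of the 50-base stretches of each transcript, 3.42% in Tssk1 and 9.34% in Tssk2 occur in another gene. For Tssk6, the overlaps with Yjefn3 and with Ndufa13 on the opposite strand add up to 29.2% of the exon bases. A base under both genes counts for each.

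**Figure D3:**
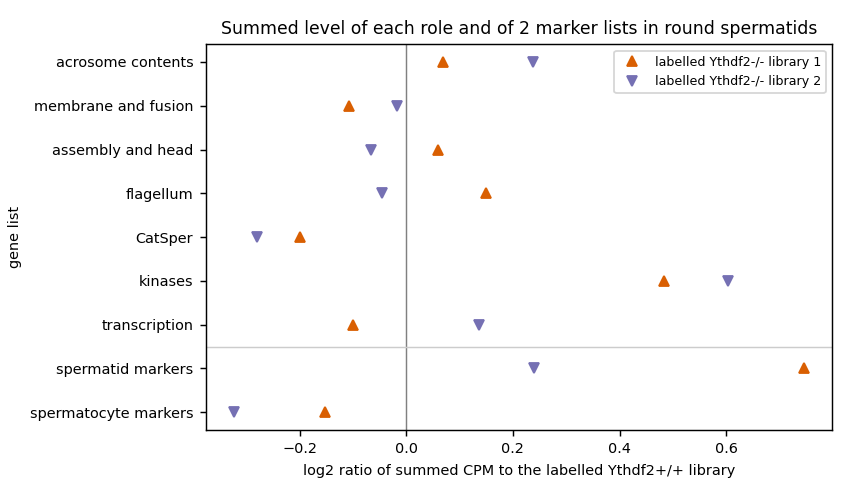
Summed CPM of the genes of each role, and of the spermatid and spermatocyte marker lists, in each labelled Ythdf2-/- library as a log2 ratio to the labelled Ythdf2+/+ library. The kinases lie at 0.48 and 0.60, CatSper at -0.20 and -0.28, and the marker lists at 0.75 and 0.24 and at -0.15 and -0.32.

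The transcription genes differed from each other. Fhl5 (chr4:25199908-25242876, minus strand, up to 7 exons) had 129 and 171 CPM in the labelled knockouts and 72.0 in the labelled wild type. Both labelled knockouts, at a mean of 150.3 ± 29.5 CPM (SD, n = 2), were above the labelled wild type. The log2 change was 1.06 ± 0.27 SE (edgeR adjusted p = 0.00636), with adjusted p from 0.00101 to 0.0332 over the 5 alternative fits. Crem, whose product FHL5 coactivates, had 389 and 504 CPM against 413, with overlapping groups and a log2 change of 0.11 ± 0.24 SE that turned to -0.076 without labelled knockout 2. Tbpl1, a TATA-binding protein relative needed for spermiogenesis, had 415 and 425 CPM against 515, both below, with a log2 change of -0.30 ± 0.23 SE. The authors' deposited table gives Fhl5 an adjusted p of 0.0391, Capza3 one of 0.0525 and Gopc one of 0.261, and lists 2 of the 37 genes, and 350 of all 17715, under 0.05.

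**Figure D4:**
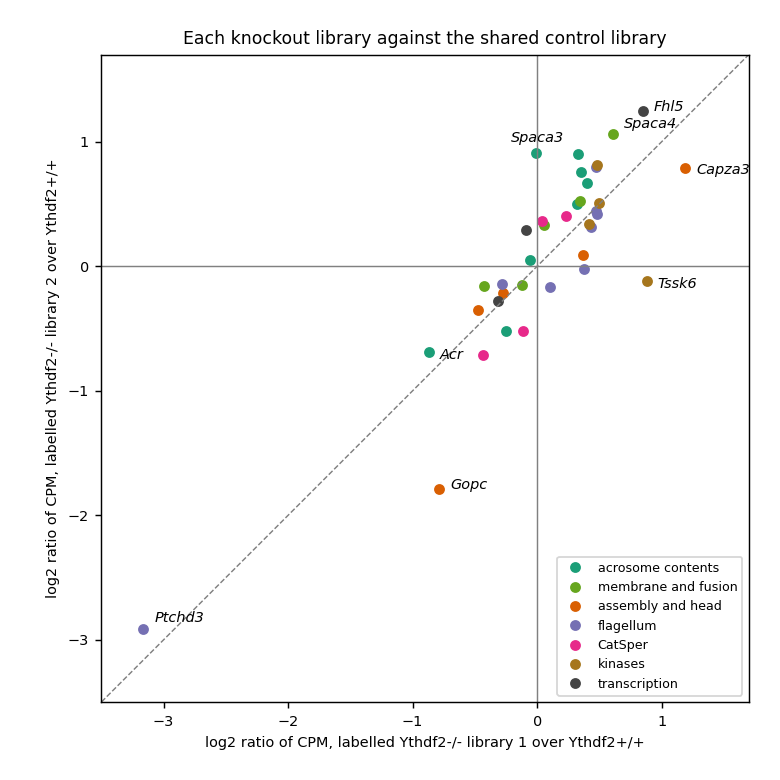
Log2 ratio of CPM to the labelled Ythdf2+/+ library for each of the 37 genes, labelled Ythdf2-/- library 1 on the horizontal and library 2 on the vertical axis; the dashed line marks equal ratios. Both axes share the control library, and genes far from the dashed line, such as Gopc, Tssk6 and Spaca3, differ between the labelled knockouts.

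Catsper4 and Tssk3 lie within 5 Mb of Ythdf2 on chromosome 4, and neither was called. In that window 6.43% of 140 tested genes were called, beside 4.88% elsewhere.

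In GV oocytes the set is mostly weakly expressed, and the second question was what loss of Mettl3 did to the members present there. Oocyte identity was clear from the markers in the controls. All 7 oocyte markers were listed, at a summed 13431 to 25521 CPM in the controls. Of the spermatid markers 7 of 10, Prm1 and Tnp1 among them, were not listed. In the Cre+ libraries 2 of the 7 oocyte markers were called higher and 2 lower by edgeR, beside 15.4% and 13.4% of all tested genes. Mettl3 itself stood at 3.47, 1.35 and 0.901 CPM in the Cre+ libraries and at 13.2 to 41.7 CPM in the controls, a log2 change of -3.77 ± 0.57 SE (edgeR adjusted p = 0.00182). Of the set 24 genes were listed and 16 passed the filter on low counts. In edgeR 3 were called higher and 3 lower; 28.8% of the 13551 tested genes were called, 15.4% higher and 13.4% lower. In 5 members every Cre+ library was above every control (21.0% of all tested genes), and in 4 every one was below (18.3%). Total counts ran from 6484397 to 18181397.

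Transcription genes held 3 of the 6 calls. Tbpl1 stood at 129, 112 and 61.9 CPM in the Cre+ libraries and at 20.7, 21.4, 21.7 and 23.1 CPM in the controls. Every Cre+ library was above every control, with a log2 change of 2.22 ± 0.27 SE (edgeR adjusted p = 0.000679). Crem rose as well, from 7.30 ± 1.47 CPM (SD, n = 4) in the controls to 20.7 ± 2.58 CPM (SD, n = 3), a log2 change of 1.51 ± 0.29 SE (edgeR adjusted p = 0.00529). Fhl5 was low, at 0.282 ± 0.0515 CPM (SD, n = 3) against 1.83 ± 1.36 CPM (SD, n = 4), with a log2 change of -2.69 ± 0.75 SE (edgeR adjusted p = 0.0255). The Fhl5 call was lost without any 1 of the Cre+ libraries (adjusted p from 0.0586 to 0.0893).

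Other calls in GV oocytes touched the sperm surface and CatSper. Spam1 fell: it stood at 6.82, 13.1 and 11.1 CPM in the Cre+ libraries and at 22.1, 24.1, 29.1 and 40.8 CPM in the controls. The groups did not overlap, with a log2 change of -1.49 ± 0.34 SE (edgeR adjusted p = 0.0111). Spaca1 rose from 0.432 ± 0.289 CPM (SD, n = 4) to 4.96 ± 1.18 CPM (SD, n = 3), a log2 change of 3.48 ± 0.72 SE (edgeR adjusted p = 0.00671) that rests on 0 to 8 counts in each control. Catsper3 fell to 3, 3 and 0 counts in the Cre+ libraries from 14 to 56 in the controls, a log2 change of -4.20 ± 0.72 SE (edgeR adjusted p = 0.00299). Of the most abundant members by CPM, Odf2, Hook1 and Gopc were not called. Odf2 stood at 139.6 ± 8.85 CPM (SD, n = 3) against 116.6 ± 8.97 CPM (SD, n = 4), with adjusted p = 0.289 in edgeR, although every Cre+ library was above every control. Hook1 stood at 38.6 ± 6.44 CPM (SD, n = 3) against 47.9 ± 9.91 CPM (SD, n = 4), with adjusted p = 0.370 in edgeR. Gopc stood at 26.0, 31.6 and 27.3 CPM, all above the controls at 12.2, 19.6, 23.6 and 24.5 CPM, with adjusted p = 0.216 in edgeR. Among flagellum genes outside the set, 25 were tested in GV oocytes and 3 were called, all lower, where 13.4% of all tested genes were called lower. The 3 were Sept12, a septin of the sperm annulus (-4.04), Tekt4, a tektin (-1.83), and Armc2, an axoneme assembly gene (-1.63), with edgeR adjusted p of 0.00197, 0.0336 and 0.0194. Among 5 tested spermatid transcription genes outside the set, Sox30 (5.15) and Tcfl5 (2.47) were called higher, with edgeR adjusted p of 0.00172 and 0.00260. Of all tested genes 15.4% were called higher. Markers of somatic cells were lower in the Cre+ libraries for 2 lists without overlap. The Sertoli, Leydig and peritubular lists are named after testis cells, and in oocyte libraries the names do not say which cells gave the RNA. Of the Sertoli list 8 of 10 genes were listed and 6 tested, with 4 called lower, beside 13.4% of all tested genes. The list summed to 2.96, 16.5 and 8.86 CPM in the Cre+ libraries and 40.2 to 196 CPM in the controls. Peritubular markers, with 4 of 4 listed, summed to 10.5 to 13.2 CPM against 25.4 to 36.1 CPM. Leydig markers, at 16.8 to 111 CPM against 74.4 to 222 CPM, and macrophage markers, at 4.19 CPM or less against 1.94 to 41.4 CPM, overlapped between the groups. The part of cells other than oocytes in the result was not tested.

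**Figure D5:**
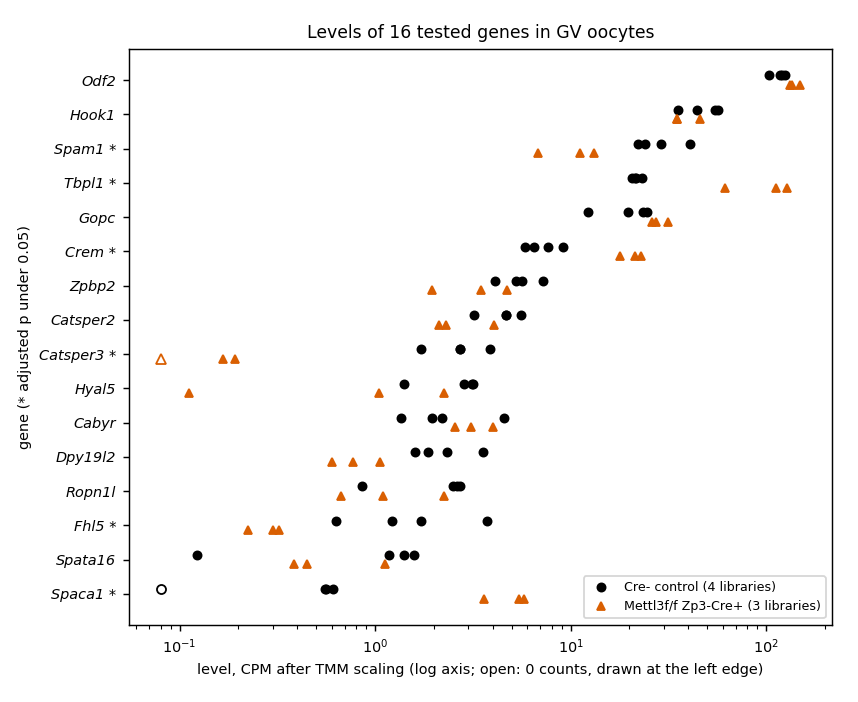
Level of the 16 tested genes of the set in the 3 Cre+ and 4 control GV oocyte libraries, in CPM on a log axis; open symbols at the left edge are libraries with 0 counts, and asterisks mark an adjusted p under 0.05. For Tbpl1, Crem and Spaca1 all Cre+ points lie to the right of all control points, and for Spam1, Catsper3 and Fhl5 to the left.

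In post-GV oocytes labelled Ythdf2-/- none of the set was called against Ythdf2+/-. Labelled knockout 2 and heterozygote 3 stood apart from the other 3 libraries on the first principal component, which held 69.9% of the variance, and with this split as a term in the fit 0 members were called. The Leydig list, named after a testis cell, summed low in the same libraries, at 35.4 CPM in labelled knockout 2 and 48.3 CPM in heterozygote 3. It summed to 943 CPM in labelled knockout 1 and 1807 and 3415 CPM in heterozygotes 1 and 2. There 20 genes were listed and 15 tested, and edgeR called 0 of 13910 genes (0% of all tested), with 782 genes and 1 member, Spaca1, at an unadjusted p under 0.05; DESeq2 called 77 genes and 0 members. Ythdf2 stood at a mean of 177 CPM in the labelled knockouts and 98.6 in the heterozygotes (edgeR adjusted p = 0.848), so these directions too rest on the labels. Spam1 stood at 46.1 and 39.1 CPM in the labelled knockouts and at 17.6, 24.2 and 30.7 CPM in the heterozygotes. Odf2 stood at 138 and 261 CPM against 84.6, 113 and 150. The groups did not overlap for Spam1 and overlapped for Odf2, and their log2 changes were 0.82 ± 0.43 SE and 0.78 ± 0.45 SE. Hook1 stood at 76.5 and 111 CPM against 41.4 to 186, with overlapping groups. Tbpl1, Gopc and Crem had log2 changes of 0.29, 0.24 and -1.04 and overlapping groups, and Crem ranged from 0.407 to 18.6 CPM within the heterozygotes alone. In 3 of 15 members both labelled knockouts were above all heterozygotes (14.2% of all tested genes) and in 1 both were below (6.96%). Oocyte markers moved with the labels, at 9274 and 9448 CPM against 3770 to 6252 CPM, and macrophage markers summed to 1090 and 49.0 CPM against 80.0 to 221 CPM; the part of any of these markers in the result was not tested.

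Few of these genes were listed in stem cells. Of the set 9 were listed and 7 tested, among them no acrosome contents gene and no kinase. Total counts were only 612598 to 1111764 per library, and a gene needed 6 counts in some library to be listed. The number listed thus depends on depth as well as on level. The 2 libraries of each stem cell group differed by no more than counting error (chi-square per gene of 0.689 to 0.835 in the 6 pairs), and nothing says that they came from separate cultures, so their p-values measure a spread that may be technical. The same 2 WT libraries served all 5 comparisons. The knockouts of Ythdf1, Ythdf2 and Ythdf3 alone gave 0 member calls in edgeR, where 3.45%, 1.91% and 2.84% of 11951 genes were called, and in which 0, 1 and 2 members were at an unadjusted p under 0.05, beside 1775, 1412 and 1731 of all genes; DESeq2 gave 0 member calls as well. The triple knockout gave 1 call, where 25.1% of all genes were called. Odf2 stood at 574 and 561 CPM in the triple knockout and at 491 and 481 CPM in the WT, a log2 change of 0.22 ± 0.06 SE (edgeR adjusted p = 0.00726, DESeq2 adjusted p = 0.242). The Mettl3 knockout gave 2 calls, where 30.4% of all genes were called. Hook1 stood at 82.1 and 103 CPM against 68.5 and 59.7, a log2 change of 0.56 ± 0.14 SE (edgeR adjusted p = 0.00650, DESeq2 adjusted p = 0.208). Tbpl1 stood at 78.8 and 59.7 CPM against 49.5 and 42.8, a log2 change of 0.55 ± 0.17 SE (edgeR adjusted p = 0.0263, DESeq2 adjusted p = 0.267). Without WT library B all 3 of these calls were lost (adjusted p of 0.0586 for Odf2, 0.0825 for Hook1 and 0.167 for Tbpl1). The Odf2 call was also lost without either triple knockout library (0.0827 and 0.0517), the Hook1 call without Mettl3 knockout library B (0.333) and the Tbpl1 call without library A (0.303). In the WT stem cells Gopc stood at 51.3 and 54.4 CPM, Crem at 40.5 and 42.8 and Catsper2 at 19.8 and 25.0. Izumo1, at 9.01 and 12.5 CPM, stood beside its overlapping neighbour Rasip1 at 58.6 and 48.1 CPM. Mettl3 fell by 3.07 on the log2 scale in its knockout, while Ythdf2 in the library pair labelled Ythdf2 knockout had a log2 change of -0.85 (edgeR adjusted p = 0.216). In their own knockouts Ythdf1 and Ythdf3 stood at means of 176 and 76.9 CPM, against 176 and 69.5 in the WT. In the triple knockout mean Ythdf1, Ythdf2 and Ythdf3 were 161, 33.0 and 72.8 CPM, against 176, 25.5 and 69.5 in the WT. The directions for the Ythdf knockouts thus rest on the labels here too.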

How the data were processed

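Gene-level counts were deposited by the authors for each library; per the submitters' processing notes CASAVA 1.8.2, cutadapt, STAR 2.4.2a and DESeq2 were used with mm10. Counter, annotation and strand setting were not given in the sources used here. Only genes with 6 or more counts in some library appear in the deposited tables. The authors' deposited log2 fold changes and p-values were used only where named. Per-sample columns without a sample numbered 0. One post-GV heterozygote title repeats a replicate number, and its bracketed name was used.

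The members and gene lists were chosen with earlier results of these data known. Counts of 1 experiment at a time were fitted by edgeR 4.0.16 (R 4.3.3, limma 3.58.1) after filterByExpr on groups, with TMM factors and the robust quasi-likelihood test; stem cell contrasts shared 1 fit. SE is the log2 change divided by the root of F. P-values measure the spread between these libraries, which may be technical. Alternatives were RLE or total count scaling, no filter, a 5 CPM minimum, DESeq2 1.42.0, leaving out each library, a replicate block and, added after seeing the data, a split of the post-GV libraries on the first principal component. Values were named for all called members and, per role, for the 4 with the highest mean spermatid CPM; in the other cells, for called members and the 6 with the highest mean; from other lists, for up to 4 called genes. Acr and Spaca4 were added after their values were seen. Coordinates and exon lengths came from GENCODE M21, in which 96.0% to 96.3% of the symbols were found. Same-numbered GV libraries had residual correlations of 0.417, 0.0919 and 0.245, and differently numbered ones ran from -0.361 to 0.133. The labels do not say whether the numbers are pairs, these values do not settle it, and the main fit did not pair them. With the replicate block all GV calls numbered 4540, against 3907 in the main fit.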

Additional observations from a re-analysis of the deposited data

Results flagged for a closer look

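In the 4 GV oocyte controls, 2 of 16 tested members had 1 library far from the other 3 by Dixon's gap ratio. For normally distributed values chance gives about 1 in 20, and low counts need not follow that rate. Spaca1 had 0.0 CPM in control 3, against 0.556, 0.561 and 0.612 CPM in the others, from 0 counts against 8, 6 and 5. Ropn1l had 0.856 CPM in control 2, against 2.50, 2.62 and 2.71 CPM in the others, from 7 counts against 36, 25 and 29.

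Under the label Ythdf2-/- 3 members lay on opposite sides of their controls in different cells, in every library of each contrast; these differences were not tested. The same held for 882 of 11745 genes (7.51%) tested in both spermatids and post-GV oocytes, beside 2 of 15 members, and for 1797 of 10241 genes (17.5%) tested in both spermatids and stem cells, beside 1 of 7 members. Dpy19l2 had a log2 change of -0.41 in spermatids and 1.67 in post-GV oocytes. Cabyr had one of 0.46 in spermatids and -0.74 in post-GV oocytes. Catsper2 had one of -0.57 in spermatids and 0.26 in stem cells.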

How the results depend on the processing

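For spermatids the number of called members was 4, and 3 to 6 over the 5 alternative fits. Of 185 member values over these fits, 174 kept their direction and their side of the threshold. Scaling by total counts added Spaca4 (adjusted p = 0.0402), Ropn1 (0.0457) and Tssk2 (0.0327), and it shifted the median of all genes from 0.08 to 0.18. Zpbp turned to 0.097 with total counts and 0.048 with a 5 CPM minimum, and Odf2 to 0.073 and 0.030. All called genes numbered 785, but 341 with the 5 CPM minimum and 398 with DESeq2. Without 1 labelled knockout the spermatid values have no test. No paired analysis was possible for spermatids because there was 1 control library. For GV oocytes 6 members were called, 3 with the 5 CPM minimum, where 7 were tested, and 5 to 7 when leaving out each library; all calls numbered 3907 and ran from 2254 to 4243. With the replicate block, in which the numbers are only shared, 6 members were called in GV oocytes, 0 in post-GV oocytes, 1 in the triple and 2 in the Mettl3 knockout stem cells, and 0 in the 3 single Ythdf knockouts. In post-GV oocytes 0 members were called in every fit, while all calls were 0, 77 with DESeq2, 3 with the block, 258 with the principal component split as a term, and 0 to 1 when leaving out each library. In stem cells the member count with DESeq2 was 0 for the triple and 0 for the Mettl3 knockout; leaving out each library gave 0 to 1 and 0 to 2. All calls with DESeq2 were 56, 11 and 29 for Ythdf1, Ythdf2 and Ythdf3, 785 for the triple and 1241 for the Mettl3 knockout, against 412, 228, 340, 2996 and 3630; leaving out each library gave 193 to 237, 54 to 123, 112 to 200, 1799 to 2235 and 2319 to 2819. The share of higher calls for Ythdf3 moved from 61.2% to 46.6% with total counts. The cause of these shifts was not tested.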
